A study of Mus musculus with 16 samples.

Results

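The collagen genes are those that encode the chains of the collagen triple helices, named Col with the number of the collagen type and of the chain. All genes with a probe set annotated to 1 such symbol were taken, apart from Col17a1 and Col7a1, the collagens of the hemidesmosome and the anchoring fibril. This gave 34 of the 12393 genes with 1 symbol on the array. A gene with several probe sets is represented by the one with the highest mean over the 6 groups. By the known structure of their products the 34 are 9 fibrillar genes, 6 basement membrane genes (type IV) and 19 others, and 23 of them (7, 5 and 11) were bright enough to be tested. Col15a1 and Col18a1, also collagens of basement membrane zones, are not of type IV and count among the others.

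Collagens are made on the rough endoplasmic reticulum as chains of repeated glycine triplets that are hydroxylated, folded by chaperones into triple helices, secreted, trimmed and cross-linked outside the cell. In skin the fibrils of types I, III and V carry the tensile load of the dermis, and dermal fibroblasts are their main source. Type IV chains build the sheet-like network of the basement membranes under the epidermis and around follicles, vessels, nerves, fat and muscle. The other classes coat fibrils, form beaded microfibrils or anchor to membranes.

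RNA came from total skin of mice in which the K14 promoter, active in basal keratinocytes, drives deltaNB-cateninER (transgenic, line D2), and from wild-type C57BL/6 mice. DeltaNB-cateninER is a stabilised β-catenin that 4-hydroxytamoxifen (4OHT) switches on. Both genotypes received 4OHT for 0, 1 or 7 days. There were 2, 3 and 3 Affymetrix arrays of transgenic skin for days 0, 1 and 7, against 3, 3 and 2 of wild-type skin. No vehicle-treated group is among the labels, so drug, handling and elapsed time cannot be told apart within a genotype. The labels give no ages and do not state a littermate background or that each array is a separate animal, and they name a single mouse for 3 of the wild-type arrays. The p-values therefore rest on the spread between these arrays, which may in part be technical.

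Values are scaled probe set intensities, and differences are on the scale of log2(intensity + 32), which understates changes of dim genes. The threshold for a call was an adjusted p under 0.05 from limma, fitted on the 9057 genes that passed a filter on low values. The trimmed mean of the 16 arrays lay between 358 and 546 before scaling. Markers of other cells in whole skin moved between groups. Of 12 macrophage markers, 10 rose by day 1 in transgenic skin, where 6.58% of all genes did, and 11 in wild-type skin, where 10% did. At day 7 of 4OHT in transgenic skin the sum of 8 hair follicle lineage markers reached 30370 to 44990, against 318 to 512 on all other arrays. These markers are near background elsewhere, where none of the 8 exceeded the 157 of Krt71, so no count of their calls is given. In the same comparison 8 of 9 skeletal muscle, 7 of 9 endothelial and 5 of 7 adipocyte markers fell, against 20.1% of all genes. Of 14 dermal fibroblast markers 5 rose and 4 fell there, where 18.6% of all genes rose and 20.1% fell. The sum of these 14 markers was 29349 to 37571 against 37031 to 37387 at day 0. Fewer cells of a type and less RNA per cell cannot be told apart in whole skin, and the part of these shifts in the values of the collagen genes was not tested.

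Before 4OHT the brightest readings came from the fibrillar genes. Col1a1 and Col1a2, which encode the chains of type I collagen, and Col3a1, the chain of type III collagen, read between 7374 and 13051 at day 0 in both genotypes. On all 16 arrays Col1a2 reached 74.1% to 97.7% of the highest probe set value of its array, Col3a1 54.2% to 77.6% and Col1a1 52% to 74.7%. At the low end Col11a1, Col4a3, Col8a1, Col9a1, Col12a1 and Col25a1 passed the filter on 2 to 13 arrays, and their day 0 values lay between 46.4 and 357. The remaining 11 genes, among them Col2a1 and Col10a1 of cartilage, reached at most 120 on any array and were not tested. The 40th percentile of an array, the level used in the filter, was 101 to 132.

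After 1 day of 4OHT the 3 type V chain genes rose in both genotypes, and so did Col6a3. In transgenic skin 6 of 23 collagen genes rose and 1 fell (of all genes 6.58% rose and 4.13% fell, 10.7% in all), with a median difference of 0.29 against -0.03 over all genes. In wild-type skin 5 rose and 0 fell (of all genes 10% rose and 12.3% fell, 22.4% in all), with a median of 0.17 against -0.03. The groups of days 0 and 1 did not overlap for 41.6% of all genes in transgenic and 41% in wild-type skin. Type V collagen co-assembles with type I and limits fibril diameter. The Col5a3 reading was 568 and 414 at day 0 and 910, 1313 and 1077 at day 1 in transgenic skin. The wild-type reading was 606, 555 and 755 at day 0 and 1405, 1277 and 1168 at day 1. No day 1 array overlapped with day 0 in either genotype, and the differences were 1.11 ± 0.19 (SE, adjusted p = 0.00164) and 0.98 ± 0.17 (adjusted p = 0.00113). Bases upstream of the Col5a3 start site, ending 51 bases before it, on chr9:20815118-20815317 of the minus strand in GRCm38.p6, are shown because this gene changed in every comparison of a day with day 0. The capitals mark a CCAAT box, the sequence bound by the factor NF-Y.
Col5a3: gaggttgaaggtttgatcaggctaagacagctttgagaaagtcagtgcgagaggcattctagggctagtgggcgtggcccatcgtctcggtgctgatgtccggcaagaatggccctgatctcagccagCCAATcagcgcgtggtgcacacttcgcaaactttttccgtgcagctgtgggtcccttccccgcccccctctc

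Col5a2, the second chain of the common type V trimer, read 2572 and 2181 at day 0 and 3933, 4380 and 4121 at day 1 in transgenic skin. The wild-type values were 2461, 2324 and 3253, then 4408, 4222 and 4353. The rises were 0.80 ± 0.13 (adjusted p = 0.00138) and 0.70 ± 0.12 (adjusted p = 0.000996), with no overlap between days. Col5a1, the first chain, read 1377 and 1188 and then 2211, 2547 and 2280 in transgenic skin. In wild-type skin it read 1355, 1169 and 2087 and then 2149, 2198 and 2138, so that replicate 3 of day 0 came close to the day 1 arrays. The differences of Col5a1 were 0.86 ± 0.18 (adjusted p = 0.00711) and 0.53 ± 0.16 (adjusted p = 0.0271). Leaving out transgenic day 0 replicate 2 ended the transgenic call on Col5a1 (0.75, adjusted p = 0.10). The wild-type call on it was lost without wild-type day 0 replicate 1 or 2 or any of the 3 day 1 arrays (0.36 to 0.53, adjusted p = 0.0577 to 0.146).

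Type VI collagen forms beaded microfibrils around cells from 3 different chains, and its genes moved unevenly. Col6a3 read 3622 and 3177 at day 0 and 5364, 5119 and 5118 at day 1 in transgenic skin. The wild-type arrays gave 3816, 3379 and 4493, then 5369, 5211 and 4759. Groups did not overlap, and the rises were 0.61 ± 0.12 (adjusted p = 0.00502) and 0.40 ± 0.11 (adjusted p = 0.0157). Without transgenic day 0 replicate 2 the first Col6a3 call was lost (0.52, adjusted p = 0.0886), as was the wild-type call without its day 0 replicate 2 (0.30, adjusted p = 0.089) or day 1 replicate 1 (0.36, adjusted p = 0.0663). Col6a2 rose in transgenic skin, from 3304 and 2969 to 4020, 4117 and 4927 (0.47 ± 0.13, adjusted p = 0.0326). In wild-type skin it read 3467, 3137 and 4152 and then 3828, 3929 and 4177, a difference of 0.16 (adjusted p = 0.354). The Col6a2 rise was not called without either transgenic day 0 array or without day 1 replicate 2 or 3 (0.37 to 0.54, adjusted p = 0.0517 to 0.244). Col6a1 read 3411 and 3466, then 4031, 3955 and 4647 in transgenic skin, and 3600, 3665 and 4260, then 3407, 3580 and 3709 in wild-type skin. Its differences were 0.29 (adjusted p = 0.123) and -0.10 (adjusted p = 0.501).

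Among the type IV genes, Col4a2 rose and Col4a6 fell in transgenic skin by day 1, and Col4a3 rose in wild-type skin. Col4a2, whose product pairs with the Col4a1 chain in most basement membranes, went from 1281 and 1161 to 1520, 1699 and 1711 (0.42 ± 0.12, adjusted p = 0.0362). Its wild-type values were 1627, 1310 and 1394, then 1923, 1569 and 1523 (0.21, adjusted p = 0.179). Col4a1 gave 0.42 ± 0.13 in transgenic skin at an adjusted p of 0.0542 and 0.18 in wild-type skin (adjusted p = 0.311). Col4a6, a chain that trimerises with the Col4a5 chain in the epidermal basement membrane, went from 367 and 585 to 301, 309 and 259 (-0.63 ± 0.17, adjusted p = 0.0269). Leaving out transgenic day 0 replicate 2, the higher of the pair, gave -0.32 (adjusted p = 0.379), and the call was also lost without day 1 replicate 1 (-0.66, adjusted p = 0.0514) or 3 (-0.56, adjusted p = 0.0661). The Col4a2 call was lost without either day 0 array or without day 1 replicate 2 or 3 (0.35 to 0.49, adjusted p = 0.0715 to 0.257). Col4a3, a chain best known from kidney filters, was dim, at 69.7, 46.4 and 88.5 in wild-type skin before 4OHT and 157.5, 131.9 and 127.8 at day 1 (0.79 ± 0.16, adjusted p = 0.00359). In transgenic skin it read 64.8 and 70.6, then 97.3, 135 and 90.8 (0.47, adjusted p = 0.108).

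The main dermal chains moved less on their brightest probe sets. Col1a1 read 7374 and 8201 at day 0 and 9180, 10026 and 10462 at day 1 in transgenic skin (0.34 ± 0.11, adjusted p = 0.0501). The wild-type arrays gave 8839, 7690 and 9657, then 9414, 10087 and 9893 (0.17, adjusted p = 0.207). Col1a2 differed by 0.24 ± 0.14 (adjusted p = 0.287) and 0.20 ± 0.12 (adjusted p = 0.249), from 10683 and 12568 to 13650, 12574 and 14796 in transgenic skin and from 12917, 10814 and 13051 to 13425, 12887 and 16082 in wild-type skin. Col3a1 went from 8718 and 8898 to 10012, 10415 and 11159 in transgenic skin (0.26 ± 0.08, adjusted p = 0.0586) and from 10004, 8996 and 10524 to 10413, 10214 and 11342 in wild-type skin (0.12, adjusted p = 0.277). A second, dimmer probe set of Col3a1 did rise in both genotypes, from a mean of 1960 to 4220 (1.09 ± 0.21, adjusted p = 0.00593) in transgenic skin and in wild-type skin from 2310 to 4510 (0.99 ± 0.19, adjusted p = 0.00287). A second probe set of Col1a2 rose in transgenic skin, from 6280 to 9320 (0.57 ± 0.14, adjusted p = 0.0234). The bright probe sets of these genes sit near the top of the scale of the array, and whether that narrows their differences was not tested.

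**Figure D1:**
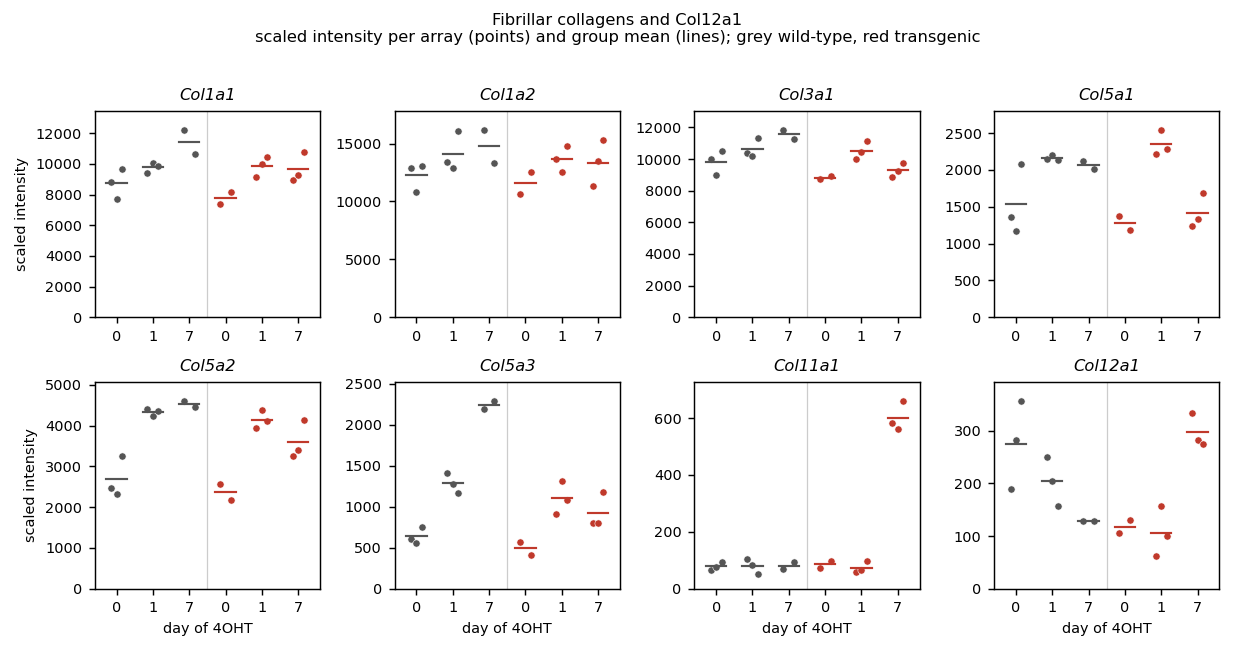
Scaled intensity (linear axis from 0) of 7 fibrillar genes and Col12a1 on each of the 16 arrays, by day of 4OHT; grey points are wild-type and red points transgenic arrays, and lines are group means. Col5a3 reached 2191 and 2288 in wild-type skin at day 7, and Col11a1 stood at 562 to 660 on the 3 transgenic day 7 arrays against at most 103 on the other 13.

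Some genes for collagen synthesis also rose by day 1. Of 10 tested genes for collagen hydroxylases and glycosyltransferases 4 rose in transgenic skin (6.58% of all genes did) and 5 in wild-type skin (10% of all genes). Plod1, a lysyl hydroxylase, rose from a mean of 512 to 1182 (1.15 ± 0.12, adjusted p = 4.87e-05) in transgenic skin and from 533 to 1021 (0.91 ± 0.11, adjusted p = 0.000126) in wild-type skin. P4ha2, a catalytic subunit of the prolyl hydroxylase that stabilises the helix, rose from 323 to 1012 (1.54 ± 0.19, adjusted p = 0.000139) and from 418 to 766 (0.80 ± 0.17, adjusted p = 0.00376). Its partner P4hb rose by 0.35 (adjusted p = 0.027) and 0.26 (adjusted p = 0.0387). Of 11 chaperone and export genes 5 rose in transgenic and 2 in wild-type skin (the same shares of all genes apply), among them the proline isomerase Fkbp7 in both (0.81 and 0.59). Loxl1, a lysyl oxidase that cross-links matrix fibres, rose from 1788 to 3513 (0.97 ± 0.16, adjusted p = 0.00144) and from 1874 to 3160 (0.75 ± 0.14, adjusted p = 0.00211), and Lox rose in wild-type skin (0.42, adjusted p = 0.0383). Tgfb1, which encodes a growth factor that stimulates collagen synthesis, rose in wild-type skin from 453 to 1086 (1.21 ± 0.23, adjusted p = 0.00227), and gave 0.83 ± 0.26 in transgenic skin (adjusted p = 0.0507).

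The macrophage markers summed to 29989 to 43378 at day 1 in transgenic and 40422 to 44693 in wild-type skin, and 19644 to 24149 at day 0 in both, beside these rises. The fibroblast markers summed to 42305 to 45697 and 42884 to 43288 at day 1 against 36740 to 40689 at day 0. Leaving out transgenic day 0 replicate 2 left 2 of the 7 transgenic calls, leaving out transgenic day 1 replicate 3 left 4, and leaving out wild-type day 0 replicate 2 left 3 of the 5 wild-type calls. Without further scaling of the arrays 1 collagen gene rose and 0 fell in transgenic skin, and 3 rose and 0 fell in wild-type skin. With only the groups compared in the fit, 4 rose and 0 fell in transgenic skin.

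At day 7 in transgenic skin the largest change was that of Col11a1, which was dim in every other group. Here 9 of 23 collagen genes rose and 2 fell (of all genes 18.6% rose and 20.1% fell, 38.7% in all), with a median difference of 0.28 against 0.01 over all genes. For 59.7% of all genes these groups did not overlap. Col11a1 encodes a chain of type XI collagen, a fibrillar collagen best known from cartilage. It read 73.3 and 96.4 at day 0, 56.7, 65.6 and 96.1 at day 1, and 582, 562 and 660 at day 7. Its 8 wild-type readings lay between 52.9 and 103. The gene passed the filter only through these 3 arrays, so it could be tested only because it was high there, and all other groups lie near or below the filter level of 101 to 132. Against that floor the transgenic difference was 2.44 ± 0.21 (adjusted p = 2.92e-07). Without Col11a1, 8 of 22 collagen genes rose and 2 fell, and it is also in the later counts that involve this group. Its dimmer probe set went from a mean of 24.5 to 278 (2.47 ± 0.21, adjusted p = 4.43e-07). Its upstream bases, ending 62 bases before the start site, on chr3:114030290-114030478 of the plus strand in GRCm38.p6, are shown as those of the gene with the largest change, and the capitals mark the CCAAT box on the opposite strand.
Col11a1: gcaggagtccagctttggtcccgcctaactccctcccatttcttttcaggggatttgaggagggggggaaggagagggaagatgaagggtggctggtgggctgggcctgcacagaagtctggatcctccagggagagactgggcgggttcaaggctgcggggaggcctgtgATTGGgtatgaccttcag

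Markers of cartilage were looked at beside Col11a1. Of 6 chondrocyte markers only Acan, the cartilage proteoglycan, passed the filter, through the same 3 arrays, and it went from a mean of 71 to 254 by day 7 in transgenic skin (1.46, adjusted p = 2.96e-06). Matn1, Matn3, Hapln1, Cnmd and Comp were below the filter, as were Col2a1, Col9a2, Col9a3, Col10a1 and Col11a2. Col2a1, which encodes the main fibrillar collagen of cartilage, read at most 82 on any array. The hair follicle lineage markers were high on the same 3 arrays. The 10 dermal papilla markers on the array summed to 2718 to 3030 there against 1786 to 2358 elsewhere. Of the 6 that were tested 2 were called higher than at day 0, where 18.6% of all genes were, with a median difference of 0.06. The part of these cells in the Col11a1 rise was not tested.

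Col12a1 followed, and moved in opposite directions in the genotypes. It encodes a collagen with interrupted triple helices that lies on the surface of type I fibrils. In transgenic skin it read 106 and 130 at day 0, 62.4, 158 and 99.2 at day 1, and 334, 283 and 275 at day 7 (1.14 ± 0.26 from day 0, adjusted p = 0.0026). In wild-type skin it read 189, 282 and 357 at day 0, 251, 205 and 157 at day 1, and 127.9 and 128.5 at day 7 (-0.90 ± 0.26, adjusted p = 0.0341). The day 0 levels of the genotypes did not overlap, at a difference of -1.0 ± 0.26 (adjusted p = 0.861), and 18.8% of all genes did not overlap there. The wild-type fall of Col12a1 was not called without any one of 4 arrays, day 0 replicates 2 and 3 and both day 7 arrays (-0.91 to -0.72, adjusted p = 0.0911 to 0.168). The gene has 1 probe set, and its readings at transgenic days 0 and 1 and wild-type day 7 lay around the filter level of 101 to 132.

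The type IV genes split at day 7 in transgenic skin, where Col4a1 and Col4a2 rose and Col4a5 and Col4a6 fell. Each pair lies head to head on its chromosome, 8 and X, in the RefSeq annotation of GRCm38.p6, so that the genes of a pair are read away from a shared start region. Col4a1 read 2048 and 1805 at day 0, 2700, 2547 and 2524 at day 1, and 3262, 3341 and 3772 at day 7 (0.83 ± 0.13, adjusted p = 0.000155). Col4a2 reached 1787, 1646 and 1929 at day 7, above all its day 0 values (0.54 ± 0.12, adjusted p = 0.00222). In wild-type skin Col4a1 read 2618, 2045 and 2447 at day 0, 3191, 2432 and 2442 at day 1 and 2444 and 3032 at day 7, and Col4a2 reached 1438 and 1635 at day 7, with differences of 0.21 and 0.09 (adjusted p = 0.356 and 0.671). The wild-type groups overlapped for both genes.

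Col4a6 fell step by step in transgenic skin, from 367 and 585 at day 0 through 301, 309 and 259 at day 1 to 189, 234 and 207 at day 7 (-1.04 ± 0.17, adjusted p = 0.000166). In wild-type skin it read 446, 440 and 436, then 301, 427 and 400, and then 339 and 286 (-0.46 ± 0.17, adjusted p = 0.0877). Col4a5 read 471 and 497 at day 0, 346, 377 and 327 at day 1, and 355, 354 and 300 at day 7 in transgenic skin (-0.49 ± 0.15, adjusted p = 0.0159). Its wild-type values were 395, 541 and 565, then 336, 468 and 389, and then 414 and 383 (-0.29, adjusted p = 0.227). The dimmer probe sets fell too, Col4a5 by 0.46 (adjusted p = 0.00632) and Col4a6 by 0.71 (adjusted p = 0.0482). The dimmer one of Col4a5 also fell in wild-type skin, by 0.46 (adjusted p = 0.0218). The Col4a5 call was lost without transgenic day 0 replicate 1 or 2 or day 7 replicate 3 (-0.52 to -0.42, adjusted p = 0.0547 to 0.094). Basal keratinocyte markers fell in the same comparison, 4 of 8 in transgenic skin at day 7 (20.1% of all genes fell) and 2 of 8 in wild-type skin (5.94% of all genes), and their part in the fall of these chains was not tested. The upstream bases of the pair are printed because both genes fell together. They lie on chrX:141474096-141474326 (Col4a6, minus strand, ending 20 bases before the start site) and chrX:141475169-141475369 (Col4a5, plus strand, ending 50 bases before it), and the capitals in Col4a5 mark a CCAAT box.
Col4a6: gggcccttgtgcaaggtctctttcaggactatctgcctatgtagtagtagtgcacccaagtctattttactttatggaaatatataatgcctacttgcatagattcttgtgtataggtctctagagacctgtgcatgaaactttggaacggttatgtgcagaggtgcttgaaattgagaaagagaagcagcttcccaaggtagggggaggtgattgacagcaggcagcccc
Col4a5: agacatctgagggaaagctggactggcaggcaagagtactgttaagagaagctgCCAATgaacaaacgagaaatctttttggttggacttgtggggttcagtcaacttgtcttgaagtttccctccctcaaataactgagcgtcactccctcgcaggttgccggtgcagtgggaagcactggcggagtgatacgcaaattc

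Other genes that rose at day 7 in transgenic skin were Col6a2, Col18a1, Col5a2, Col5a3 and Col1a1. Col6a2 stood at 4314, 4318 and 5537, above its day 0 pair of 3304 and 2969 (0.58 ± 0.13, adjusted p = 0.00238), whereas Col6a1 stood at 3715, 3709 and 4812 (0.23, adjusted p = 0.125) and Col6a3 at 3828, 3789 and 4840 (0.28, adjusted p = 0.0793). Col18a1, a basement membrane collagen that carries endostatin at its end, read 743 and 834 at day 0, 738, 741 and 822 at day 1, and 1105, 1115 and 1113 at day 7 (0.48 ± 0.11, adjusted p = 0.00194). It kept between 670 and 824 on all 8 wild-type arrays. Col5a2 stood at 3254, 3404 and 4135 (0.59 ± 0.13, adjusted p = 0.00203) and Col5a3 at 804, 795 and 1178 (0.87 ± 0.19, adjusted p = 0.00162). Col5a1 was back at 1237, 1328 and 1681, a range that overlapped with day 0 (0.13, adjusted p = 0.605). Replicate 3 of day 7 was the highest of its group for all of these genes except Col18a1.

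**Figure D2:**
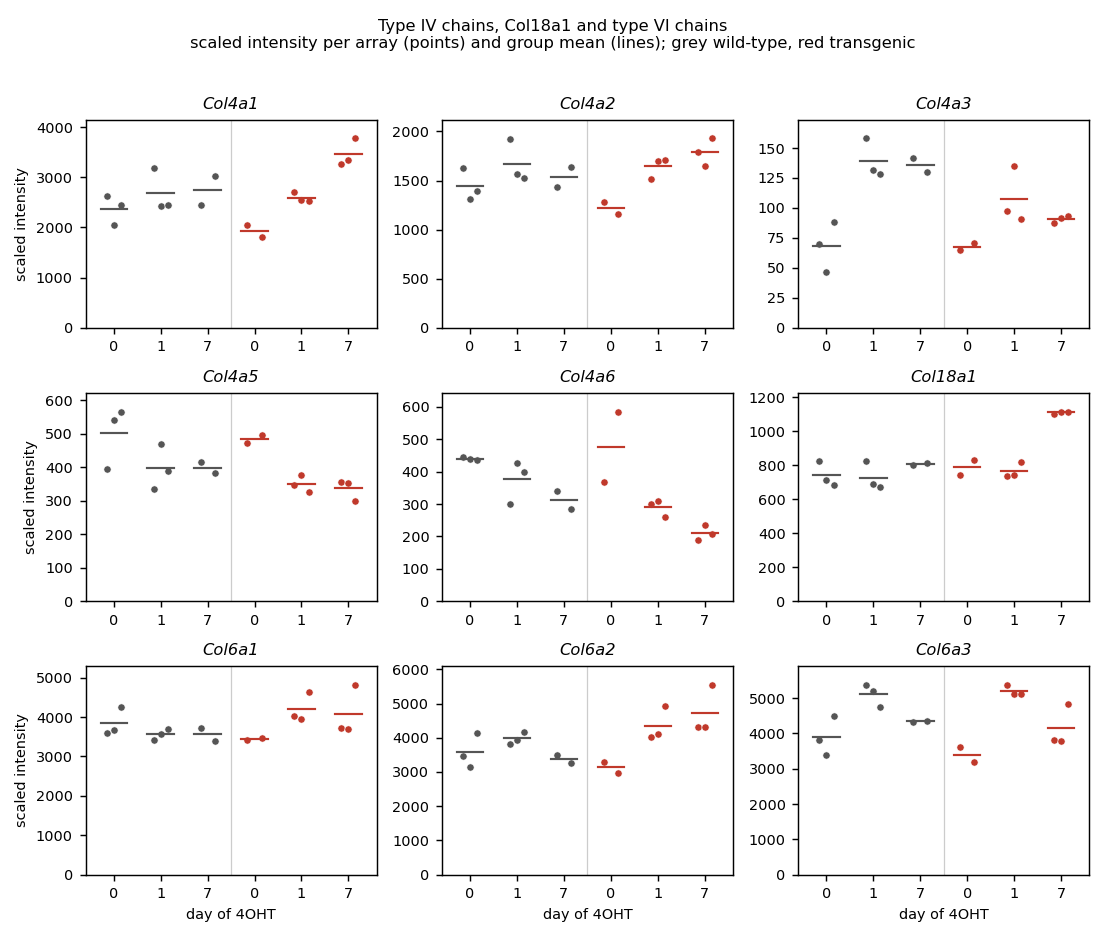
Scaled intensity (linear axis from 0) of the 5 tested type IV genes, Col18a1 and the 3 type VI genes on each of the 16 arrays, by day of 4OHT; grey points are wild-type and red points transgenic arrays, and lines are group means. Col4a1 at 3262 to 3772 and Col18a1 at 1105 to 1115 were highest on the 3 transgenic day 7 arrays, where Col4a6 was lowest at 189 to 234.

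Col1a1 gave opposite answers from its probe sets. The brighter one went to 8979, 9289 and 10759 at day 7 in transgenic skin and to 12235 and 10676 in wild-type skin, above all day 0 values of the same genotype (0.31 ± 0.11, adjusted p = 0.0306, and 0.39 ± 0.11, adjusted p = 0.0255). The dimmer one fell from a mean of 2750 to 1920 in transgenic skin (-0.54 ± 0.20, adjusted p = 0.0414) and went from 2600 to 2040 in wild-type skin (-0.36 ± 0.20, adjusted p = 0.272). The mean of both gave -0.11 (adjusted p = 0.534) and 0.02 (adjusted p = 0.946), so the direction of Col1a1 at day 7 depends on the probe set. The brighter probe set also lost its call without transgenic day 0 replicate 1 (0.23, adjusted p = 0.221) or day 7 replicate 3 (0.23, adjusted p = 0.111), and in wild-type skin without day 0 replicate 2 (0.31, adjusted p = 0.104) or day 7 replicate 1 (0.30, adjusted p = 0.257). Col1a2 read 11366, 13450 and 15270 at day 7 in transgenic and 16198 and 13299 in wild-type skin (0.19, adjusted p = 0.288, and 0.26, adjusted p = 0.236).

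In wild-type skin at day 7 the type V rise went on in Col5a3. Of 23 collagen genes 4 rose and 1, Col12a1, fell (of all genes 5.47% rose and 5.94% fell, 11.4% in all), with a median of 0.17 against -0.03 over all genes. For 44% of all genes the day 0 and day 7 groups did not overlap. Col5a3 reached 2191 and 2288, above day 1 and day 0 alike (1.77 ± 0.19 from day 0, adjusted p = 3.78e-05). Col5a2 stood at 4601 and 4448 (0.76 ± 0.13, adjusted p = 0.002), and Col4a3 at 142 and 130 (0.77 ± 0.18, adjusted p = 0.0134). Col5a1 at 2128 and 2013 did not pass (0.46, adjusted p = 0.104), and replicate 3 of day 0, at 2087, lay between these arrays. The dimmer Col3a1 probe set rose from a mean of 2310 to 4180 (0.89 ± 0.21, adjusted p = 0.017), while the brighter one went to 11857 and 11269 (0.23, adjusted p = 0.0779). The Col4a3 call was lost without day 0 replicate 2, day 7 replicate 1 or day 7 replicate 2 (0.60 to 0.82, adjusted p = 0.0526 to 0.117). The macrophage markers stayed high in this group, at a sum of 46568 to 46926, and their part in these values was not tested.

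Without further scaling of the arrays 3 collagen genes were higher and 1 lower at day 7 in transgenic skin, and 1 was higher and 0 lower in wild-type skin. The wild-type count was 2 without day 0 replicate 2, 2 without day 7 replicate 1 and 3 without day 7 replicate 2. With only the groups compared in the fit, 2 collagen genes were higher and 3 lower at day 7 in wild-type skin, which turns the balance of directions.

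**Figure D3:**
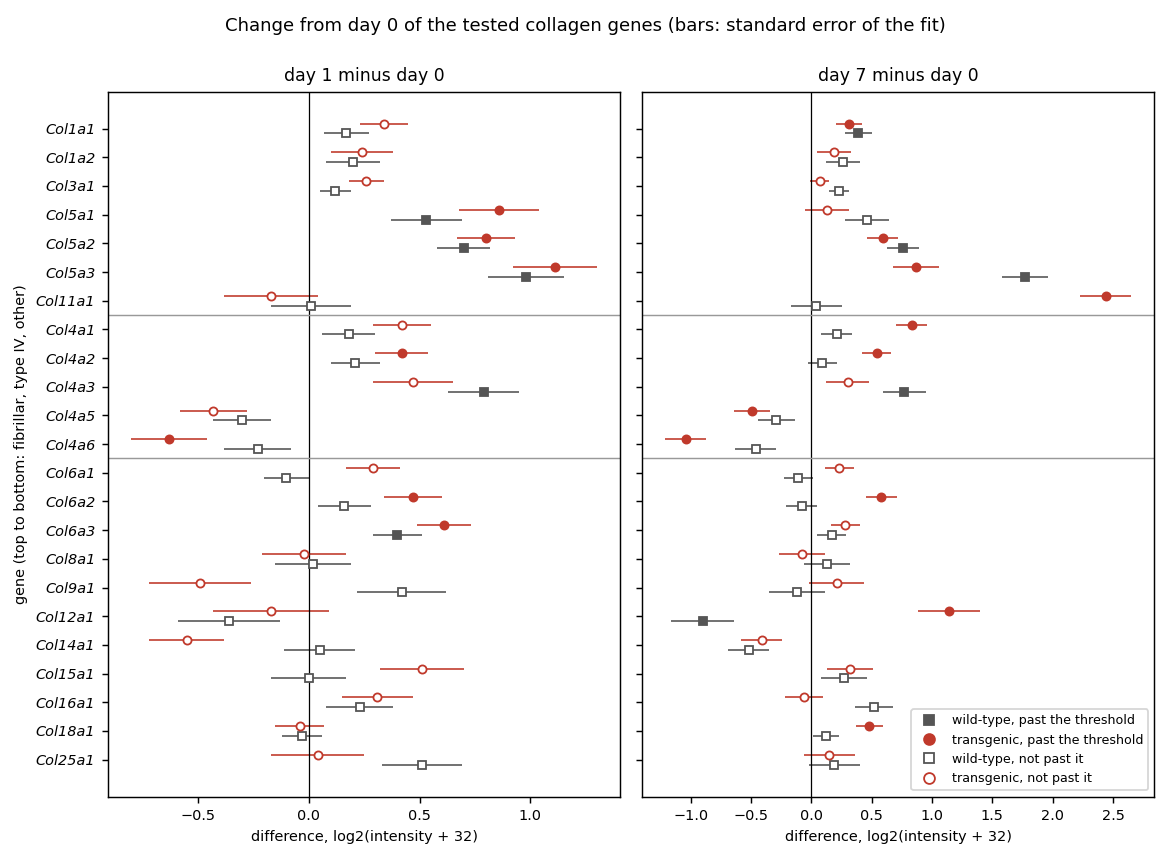
Change from day 0 of the 23 tested collagen genes on the log2(intensity + 32) scale, at day 1 (left) and day 7 (right); circles are transgenic, squares wild-type, filled symbols are past the threshold, and bars are the standard error of the fit. The type V genes Col5a2 and Col5a3 lie to the right of 0 in all 4 sets, and Col11a1 stands apart at 2.44 in transgenic skin at day 7.

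Compared by class, the fibrillar genes had the highest medians from day 0 in wild-type skin. Their median was 0.20 at day 1 and 0.39 at day 7 there, with 3 of 7 genes higher each time, against 10% and 5.47% of all genes. In transgenic skin it was 0.34 with 3 of 7 higher at day 1, and 0.31 with 4 of 7 higher at day 7, against 6.58% and 18.6% of all genes. On its brightest probe set no fibrillar gene fell past the threshold in these 4 comparisons by limma. The rises at day 7 include Col1a1 in both genotypes, whose dimmer probe set fell past the threshold in transgenic skin. The type IV genes, 5 tested, had medians of 0.42 and 0.30 in transgenic and 0.18 and 0.09 in wild-type skin. At day 7 in transgenic skin 2 of the 5 were higher and 2 lower, against 18.6% and 20.1% of all genes. The 11 other genes had medians of 0.04 and 0.23 in transgenic and 0.05 and 0.12 in wild-type skin, with 3 higher and 0 lower at day 7 in transgenic skin, a share of rises near that of all genes. The mean log2 level of the fibrillar genes was taken with each gene relative to its own average over the 6 groups. In transgenic skin it was -0.44 to -0.41 on the 2 day 0 arrays, -0.05 to 0.14 at day 1 and 0.10 to 0.43 at day 7. In wild-type skin it was -0.45 to -0.05 on the 3 day 0 arrays, 0.08 to 0.15 at day 1 and 0.26 to 0.31 at day 7. These fibrillar medians, counts and means include Col11a1, which passed the filter only through the 3 transgenic day 7 arrays and raises the transgenic day 7 mean. The class mean was not taken without Col11a1. Differences between the classes were not tested.

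The genotypes were compared at each day and in their change from day 0. As the labels state no littermate background, transgene and strain background cannot be told apart in these comparisons. At day 0 limma called 0 of 23 collagen genes (0.011% of all genes were past the threshold; 2 of the 23 had an unadjusted p under 0.05). At day 1 it called 0 (1.3% of all genes; 6 with an unadjusted p under 0.05), or 1, Col12a1, lower in transgenic skin without transgenic day 1 replicate 2. For the interaction of genotype with the step from day 0 to day 1 it called 0 (0.287% of all genes; 3 with an unadjusted p under 0.05). The median difference of the 23 genes, transgenic minus wild-type, was -0.15 at day 0 (16 negative) and also -0.15 at day 7 (14 negative). Over all genes it was -0.01 and 0.01. At day 7, 4 collagen genes were higher and 5 lower in transgenic than in wild-type skin (of all genes 19.4% were higher and 21.1% lower, 40.5% in all). The higher ones were Col11a1 (2.49 ± 0.21, adjusted p = 4.03e-07), Col12a1 (1.04 ± 0.26, adjusted p = 0.00479), Col6a2 (0.47 ± 0.13, adjusted p = 0.00891) and Col18a1 (0.45 ± 0.11, adjusted p = 0.0033).

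The lower ones were Col5a3 (-1.27 ± 0.19, adjusted p = 7.52e-05), Col16a1 (-0.59 ± 0.16, adjusted p = 0.00936), Col5a1 (-0.55 ± 0.18, adjusted p = 0.0222), Col4a6 (-0.51 ± 0.17, adjusted p = 0.0248) and Col3a1 (-0.32 ± 0.08, adjusted p = 0.00639). Among these only Col5a3 also differed past the threshold in its change from day 0 to day 7. For that change limma gave adjusted p = 0.0795 for Col16a1, 0.367 for Col5a1, 0.0913 for Col4a6 and 0.349 for Col3a1. Col16a1, another collagen of fibril surfaces, read 1005, 1057 and 1206 in transgenic and 1789 and 1517 in wild-type skin at day 7. Its earlier values were 1130 and 1141 at day 0 and 1306, 1434 and 1499 at day 1 in transgenic skin, and 898, 1082 and 1517, then 1187, 1403 and 1463 in wild-type skin, so that the groups overlapped at both times. Col3a1 read 8867, 9239 and 9747 against 11857 and 11269, and its dimmer probe set had means of 2360 and 4180 (-0.83 ± 0.21, adjusted p = 0.00642). The day 7 groups did not overlap in any of the 9 genes, as in 63% of all genes. With only wild-type day 7 replicate 1 left out, the calls on Col16a1 (-0.47, adjusted p = 0.107), Col3a1 (-0.28, adjusted p = 0.0645), Col4a6 (-0.40, adjusted p = 0.191) and Col5a1 (-0.51, adjusted p = 0.119) were lost. That on Col5a1 was also lost without wild-type day 7 replicate 2 or transgenic day 7 replicate 1 or 2 (-0.59 to -0.46, adjusted p = 0.0635 to 0.0811), that on Col4a6 without transgenic day 7 replicate 1 (-0.44, adjusted p = 0.0802), and that on Col6a2 without wild-type day 7 replicate 2 (0.42, adjusted p = 0.0743). Without further scaling 2 genes were higher and 1 lower. In the same comparison of genotypes 7 of 14 dermal fibroblast markers were lower and 2 higher, and 11 of 12 macrophage markers were lower and 0 higher. Of all genes 21.1% were lower and 19.4% higher. The part of these shifts in the collagen values was not tested.

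The change to day 7 itself differed between genotypes for 5 of 23 genes, 4 of them higher and 1 lower in transgenic skin (of all genes 12% were higher and 11.7% lower, 23.8% in all). Col11a1 differed by 2.41 ± 0.29 (adjusted p = 5.57e-05), Col12a1 by 2.04 ± 0.37 (adjusted p = 0.0011), Col6a2 by 0.66 ± 0.18 (adjusted p = 0.0179), Col4a1 by 0.63 ± 0.19 (adjusted p = 0.0254) and Col5a3 by -0.90 ± 0.26 (adjusted p = 0.0211). The first 2 kept their calls with any array left out. Col11a1 could be tested only because it was high at transgenic day 7, so its stability adds no support. The Col12a1 value includes the day 0 difference between genotypes (-1.0 ± 0.26, adjusted p = 0.861). Its mean was 298 at transgenic day 7 and 276 at wild-type day 0. The other values also include a day 0 difference, of -0.36 for Col5a3, -0.29 for Col4a1, -0.18 for Col6a2 and 0.09 for Col11a1, none of them called. At day 7 itself Col4a1 differed between genotypes by 0.34 ± 0.13 and was not called (adjusted p = 0.0555). The Col5a3 call was lost without the first transgenic day 0 array, either of the first 2 transgenic day 7 arrays or either wild-type day 7 array (-0.94 to -0.69, adjusted p = 0.0511 to 0.112). That on Col4a1 was lost without the second transgenic day 0 array or without replicate 1 of wild-type day 0 or day 7 (0.48 to 0.55, adjusted p = 0.0554 to 0.136), and that on Col6a2 without the second array of transgenic day 0 (0.58, adjusted p = 0.0734) or of wild-type day 7 (0.61, adjusted p = 0.0678). Col18a1 did not pass on its bright probe set (0.36 ± 0.15, adjusted p = 0.0962) but did on its dimmer one (1.13 ± 0.27, adjusted p = 0.00914), which went from a mean of 372 to 691 in transgenic skin, while its wild-type mean went from 442 to 357. The count was 3 without transgenic day 0 replicate 2 or either wild-type day 7 array. Without further scaling 2 genes were called, both higher.

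**Figure D4:**
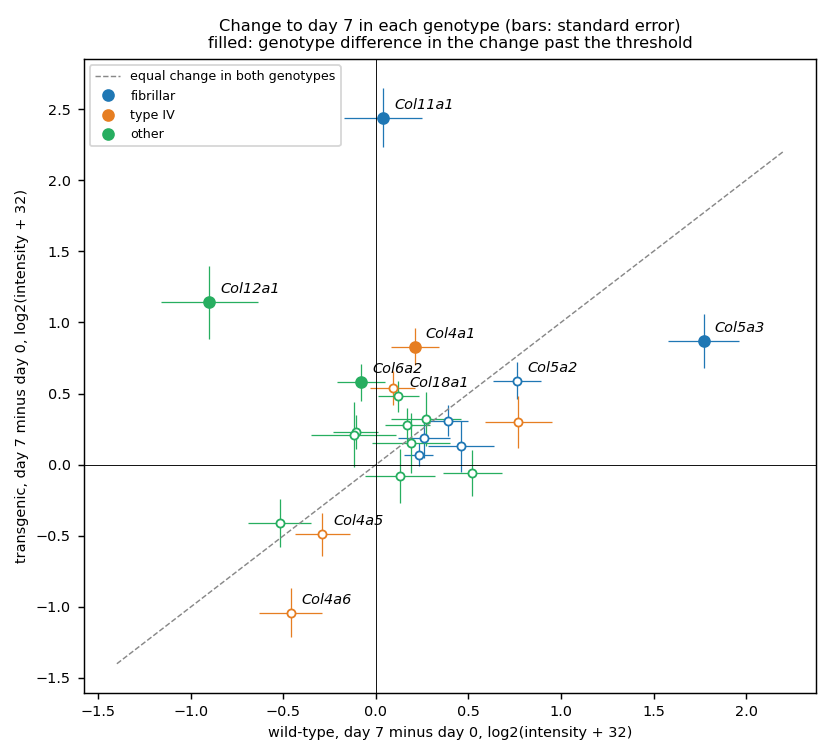
Change from day 0 to day 7 of each of the 23 collagen genes on the log2(intensity + 32) scale in wild-type (horizontal) and transgenic skin (vertical), with standard errors as bars; filled points are genes whose change differed between genotypes past the threshold, and the dashed line marks equal change. Col11a1 and Col12a1 lie far above the line, Col5a3 below it.

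The change between day 1 and day 7 was taken in each genotype alone, and its difference between genotypes was not tested. In transgenic skin 5 of 23 genes rose and 3 fell (of all genes 21.5% rose and 22.8% fell, 44.3% in all). Col5a1 fell by 0.73 ± 0.16 (adjusted p = 0.00181), Col6a3 by 0.33 ± 0.11 (adjusted p = 0.0208) and Col4a6 by 0.41 ± 0.15 (adjusted p = 0.0373). Col11a1 (2.61), Col12a1 (1.30), Col9a1 (0.70), Col18a1 (0.52) and Col4a1 (0.41) rose. Col9a1, a chain of the cartilage type IX collagen, was dim, at 73.2, 105 and 66.5 on day 1 and 134, 150 and 169 on day 7 against 110 and 144 on day 0. Both dimmer probe sets of Col5a1 fell as well (-0.67, adjusted p = 0.00621, and -0.69, adjusted p = 0.00541), and so did the dimmer one of Col3a1 (-0.82 ± 0.19, adjusted p = 0.00274). The Col6a3 fall was lost without transgenic day 1 replicate 1 or day 7 replicate 1 or 2 (-0.31 to -0.27, adjusted p = 0.0624 to 0.094). The Col4a6 fall was lost without day 1 replicate 1 or 2 or day 7 replicate 1 or 3 (-0.41 to -0.35, adjusted p = 0.0736 to 0.124). Without further scaling 3 genes rose and 1 fell, and with the mean of all probe sets of a gene 5 rose and 5 fell.

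In wild-type skin 1 of 23 genes, Col5a3, rose between day 1 and day 7 (0.79 ± 0.19, adjusted p = 0.0299). Of all genes 1.66% rose and 1.42% fell there, 3.08% in all. The call on Col5a3 was lost with any of the 5 arrays of these days left out (0.73 to 0.86, adjusted p = 0.0568 to 0.211) and without further scaling.

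Among the genes for collagen synthesis and cross-linking few changed differently in the genotypes by day 7. The difference in change passed for 1 of 10 hydroxylase and glycosyltransferase genes, 1 of 11 chaperone and export genes and 1 of 4 cross-linking genes, each lower in transgenic skin, against 23.8% of all genes. It also passed for 1 of 3 propeptide processing genes and 2 of 4 genes for collagen receptors and uptake, again lower in transgenic skin. The cross-linking gene was Loxl1, which fell in transgenic skin, from a mean of 1788 to 1174 (-0.61 ± 0.16, adjusted p = 0.00618), and rose in wild-type skin, from 1874 to 3087 (0.72 ± 0.16, adjusted p = 0.0089), a difference in change of -1.33 ± 0.22 (adjusted p = 0.000701). P4ha2 fell from 323 to 168 in transgenic skin (-0.84 ± 0.19, adjusted p = 0.00207), and Plod1 rose from 533 to 953 in wild-type skin (0.81 ± 0.12, adjusted p = 0.000892). Pcolce2, which helps to remove the C-terminal propeptide of procollagen, fell from 1822 to 578 in transgenic skin (-1.59 ± 0.15, adjusted p = 7.69e-07), and its change differed from that in wild-type skin by -1.17 ± 0.21 (adjusted p = 0.00107). Mrc2, a receptor that takes up collagen fragments, fell from 466 to 277 (-0.69 ± 0.12, adjusted p = 0.000216). From day 0 to day 7, 1 of the 10 hydroxylase and glycosyltransferase genes rose and 1 fell in transgenic skin, as did 1 and 2 of 11 chaperone and export genes, below the 38.7% of all genes called there. In wild-type skin 1 of the 10 rose (11.4% of all genes were called). Between day 1 and day 7, 5 of the 10 and 7 of the 11 fell in transgenic skin, where 22.8% of all genes did. In wild-type skin 1 of the 10 and 0 of the 11 fell between these days, where 1.42% of all genes did.

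Of 14 genes of TGF-β signalling 4 rose and 3 fell in transgenic skin at day 7, near the 18.6% and 20.1% of all genes that did. In wild-type skin 2 rose and 3 fell, where 5.47% and 5.94% of all genes did. Tgfb3, a TGF-β ligand, rose from 220 to 603 in transgenic skin (1.33 ± 0.16, adjusted p = 1.18e-05) and differed in its change by 1.85 ± 0.23 (adjusted p = 6.76e-05). Tgfbi, a secreted matrix protein induced by TGF-β, fell from 5546 to 3071 (-0.85 ± 0.10, adjusted p = 5.93e-06), and Ltbp2, a microfibril protein, from 387 to 94.1 (-1.74 ± 0.21, adjusted p = 1.03e-05). In wild-type skin Ltbp1, which binds latent TGF-β, rose from 405 to 878 (1.07 ± 0.14, adjusted p = 0.000374) and Tgfb1 from 453 to 986 (1.09 ± 0.26, adjusted p = 0.0132). Among 11 other basement membrane genes 2 rose and 2 fell in transgenic skin, a share near that of all genes (18.6% and 20.1%), namely the laminin genes Lama5 (0.68) and Lamb1 (0.51) against Lamb2 (-0.56) and Lama4 (-0.66). In wild-type skin Nid1, a linker between laminin and type IV collagen, rose by 0.45 (adjusted p = 0.015) and Agrn fell by 0.77 (adjusted p = 0.00365).

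Of the tested genes 12 had more than 1 probe set above the filter, 13 further probe sets in all. For the genes called at day 7 in transgenic skin 7 of 8 such probe sets went the same way, all 7 past the threshold, and the exception was that of Col1a1. At day 1 this held for 5 of 5 (4 past the threshold) in transgenic and 3 of 3 (2 past it) in wild-type skin. For the genotypes at day 7 it held for 7 of 7 (4 past it), and for the difference in the change to day 7 for 3 of 3 (2 past it, the exception being Col4a1 at 0.24 ± 0.24, adjusted p = 0.515). The dimmer Col5a2 probe set rose more than the bright one at day 1 in transgenic skin, from a mean of 519 to 1280 (1.25 ± 0.13, adjusted p = 7.66e-05). The fits of single probe sets were added after the data had been seen.

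**Figure D5:**
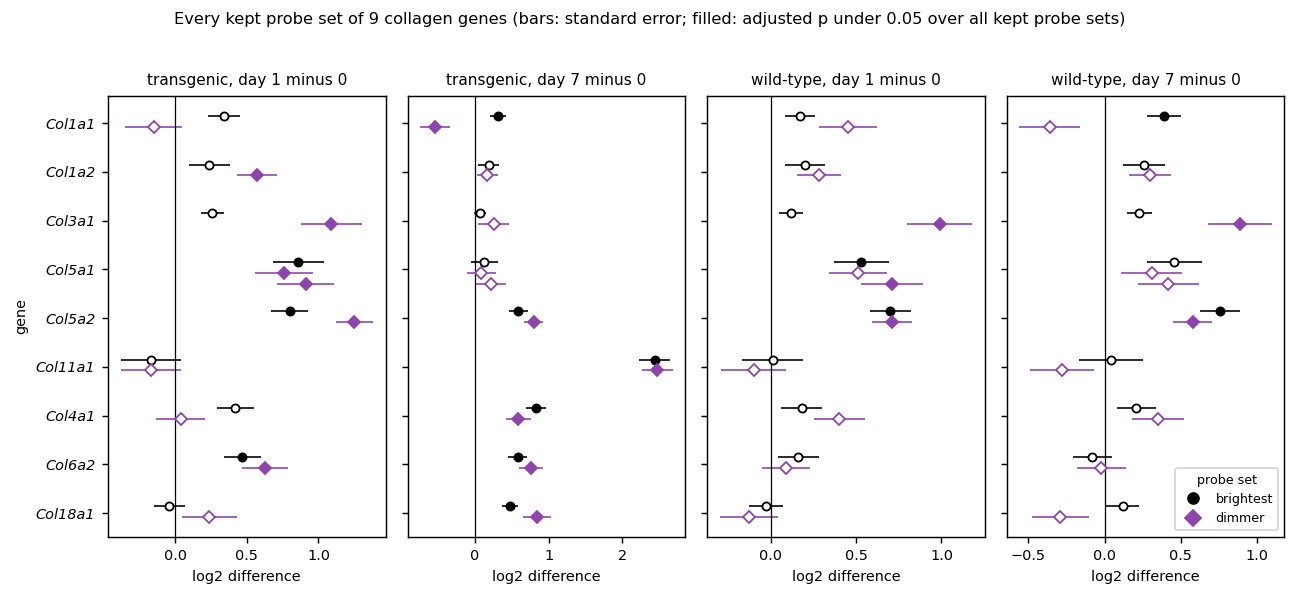
Differences from day 0 of every probe set above the filter for 9 collagen genes, on the log2(intensity + 32) scale with standard errors; black circles are the brightest probe set of a gene, purple diamonds the dimmer ones, and filled symbols have an adjusted p under 0.05 over all probe sets above the filter. The probe sets of Col1a1 lie on opposite sides of 0 at day 7, and the dimmer ones of Col3a1 lie farther from 0 than the bright ones at day 1.

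RefSeq promoter sequences (GRCm38.p6) were at hand for 25 of the 34 genes, and the 250 bases before the start site were searched on both strands for short motifs. CCAAT was found in 10 of 25 genes, against 33.8% of all 32851 promoters, and it was in 3 of 6 fibrillar and 3 of 5 type IV genes. The Sp1-type GC box GGGCGG was found in 14 of 25 genes, against 32.7% of all promoters. The Tcf/Lef motifs CTTTGAT and CTTTGTT, which the partners of β-catenin bind, were in 1 gene each, against 3.21% and 5.03%. These were Col9a2 and Col20a1, both too dim to be tested. The Smad motif CAGACA was in 7 genes, against 17.1%. The 25 genes have 28 promoters, and a match in any promoter of a gene was counted, whereas the percentages are of single promoters. Of the genes whose change to day 7 differed between genotypes, Col11a1, Col5a3 and Col4a1 had a CCAAT match and Col6a2 had none. For Col12a1 no promoter sequence was at hand. A match is a description of these letters only. The CCAAT box of Col1a2, on chr6:4505368-4505617 of the plus strand, is shown beside those above as that of the brightest gene.
Col1a2: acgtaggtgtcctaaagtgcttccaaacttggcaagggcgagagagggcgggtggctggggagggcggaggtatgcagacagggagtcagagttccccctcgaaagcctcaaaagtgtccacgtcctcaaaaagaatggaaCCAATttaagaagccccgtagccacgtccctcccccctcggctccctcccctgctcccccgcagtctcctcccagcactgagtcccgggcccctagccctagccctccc

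Of the 23 tested genes, Col1a2, Col6a1, Col8a1, Col14a1, Col15a1 and Col25a1 passed the threshold in none of the 11 comparisons by limma. Col14a1, a fibril-associated collagen of the dermis, came nearest at -0.55 ± 0.17 at day 1 in transgenic skin (adjusted p = 0.0563) and -0.52 ± 0.17 at day 7 in wild-type skin (adjusted p = 0.0655), and its dimmer probe set fell in transgenic skin by 0.58 at day 1 (adjusted p = 0.0369) and by 0.51 at day 7 (adjusted p = 0.0214). Its values were 1597 and 1142 at day 0, 985, 989 and 787 at day 1 and 911, 937 and 1210 at day 7 in transgenic skin. Col15a1, a collagen of the outer basement membrane zone, ranged from 496 to 1013 over all arrays, Col25a1, a membrane collagen, from 90.9 to 216, and Col8a1, a short-chain collagen, from 73.5 to 124.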

How the data were processed

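RNA of total skin was read on 16 arrays of the Affymetrix Mouse Expression Set 430 A, per the labels' protocols. What was deposited for each probe set is an intensity on a linear scale, and the sources used here do not name the summarisation software. Each array was rescaled to a common trimmed mean (2% cut at each end), because the trimmed means differed by more than 10%, and log2(intensity + 32) was taken. Of 22690 probe sets, 64 controls were left out, and 15058 exceeded the 40th percentile on 2 or more arrays. Of all probe sets 20380 had 1 gene symbol, 691 several and 1555 were not listed; only those with 1 were named. The brightest probe set stood for each of 9057 genes.

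limma 3.58.1 in R 4.3.3 fitted the 6 group means (10 residual degrees of freedom, eBayes with trend), and p-values were adjusted by Benjamini-Hochberg over all 9057 genes in each of 11 comparisons. The fit was tested on simulated data. Values on every array are given for collagen genes past the threshold in a comparison with day 0 or between genotypes (up to 8 in each direction) and for Col1a1, Col1a2, Col3a1, Col4a1, Col4a2 and Col6a1. Of each list of partner genes up to 4 with the smallest p are named. The members and lists were chosen with earlier results of these data known. Alternatives were the scaling, the added value, the filter, the probe set rule, the groups in the fit, a replicate block and each array left out. Motifs were searched with Python 3.11.15, and figures drawn with matplotlib 3.10.9.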

Additional observations from a re-analysis of the deposited data

Results flagged for a closer look

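The change from day 0 to day 7 differed between transgenic and wild-type skin for 5 of 23 collagen genes by the interaction term of the limma fit. That share, 21.7%, is near the 23.8% of all genes. Col11a1 passed the filter only through the transgenic day 7 arrays. The difference, transgenic minus wild-type, was 2.41 for Col11a1 (adjusted p = 5.57e-05), 2.04 for Col12a1 (adjusted p = 0.0011), 0.66 for Col6a2 (adjusted p = 0.0179), 0.63 for Col4a1 (adjusted p = 0.0254) and -0.90 for Col5a3 (adjusted p = 0.0211), with 2 or 3 arrays in each group. Each value includes the difference between the genotypes at day 0. No cause of these differences in change was tested.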

How the results depend on the processing

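Of 51 calls on collagen genes 18 kept their direction and their side of the threshold under each other setting in which the gene was tested (single dimmer probe sets apart) and with any array left out, those of Col11a1 and Col12a1 at day 7 in transgenic skin among them. Col11a1 passed the filter only through the arrays of that group, so the stability of its calls adds no support. The stricter filter left Col12a1, Col4a3 and Col9a1 untested. Without further scaling the counts of collagen genes past the threshold were 1 for transgenic day 1, 4 for transgenic day 7, 4 for transgenic day 7 against day 1, 3 for wild-type day 1, 1 for wild-type day 7, 0 for wild-type day 7 against day 1, 3 for the genotypes at day 7 and 2 for the difference in the change to day 7. That setting took the median of all genes for the difference in the change to day 1 from 0.01 to -0.18 on the log2 scale, and the share of higher genes among all those called from 44.9% to 81.9% at wild-type day 1 and from 48% to 29.3% at transgenic day 7. With only the groups compared in the fit, transgenic day 1 gave 4. With each array left out in turn the counts ranged from 2 to 9 for transgenic day 1, 9 to 12 for transgenic day 7, 6 to 11 for transgenic day 7 against day 1, 3 to 6 for wild-type day 1, 2 to 6 for wild-type day 7, 0 to 1 for wild-type day 7 against day 1, 0 to 0 for the genotypes at day 0, 0 to 1 at day 1, 6 to 12 at day 7, 0 to 0 for the difference in the change to day 1 and 3 to 7 for that to day 7. No other alternative moved a total count by more than 1.5 times. By direction, wild-type day 7 went from 4 higher and 1 lower to 2 and 3 with only the groups compared, and the falls of transgenic day 7 against day 1 went from 3 to 5 with the replicate block or the mean of all probe sets. The direction of Col1a1 at transgenic day 7 was reversed with the mean of its probe sets (-0.11, adjusted p = 0.534), and its dimmer probe set alone gave -0.54 there, -0.36 at wild-type day 7 and -0.81 for wild-type day 7 against day 1. The cause was not tested. The deviations of arrays with the same replicate number had a median correlation of 0.03 over 36 pairs (-0.25 to 0.19). Over 70 pairs of other numbers the median was -0.02 (-0.21 to 0.25). Beyond these correlations, whether the numbers pair the samples was not tested. With the replicate block the counts were 6, 10 and 10 for transgenic day 1, day 7 and day 7 against day 1, 6, 7 and 1 for the same in wild-type skin, 0, 0 and 11 for the genotypes at days 0, 1 and 7, and 0 and 6 for the differences in change. The block left Col1a1 at transgenic day 7 at 0.26 (adjusted p = 0.0514) and Col4a2 at transgenic day 1 at 0.42 (adjusted p = 0.0539). Groups of 2 or 3 arrays and signals near background limit the precision. Such signals were those of Col4a3, Col8a1, Col9a1 and Col25a1, and those of Col12a1 at transgenic days 0 and 1 and wild-type day 7.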
